A study of Homo sapiens with 4 samples.

Results

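The genes of the proteasome were followed in SUM149 cells during 12 h of treatment with the HDAC6 inhibitor Ricolinostat (ACY1215). A gene was included when its symbol began with PSMA, PSMB, PSMC, PSMD, PSME, PSMF or PSMG followed by a digit, whatever its values were. This gave 54 of 34755 gene symbols on the array, of which 48 encode proteasome subunits, activators, inhibitors or assembly chaperones. The other 6 match by name only and are described apart: the antisense or divergent transcripts PSMA3-AS1, PSMB8-AS1, PSMD5-AS1, PSMD6-AS2 and PSMG3-AS1, and PSMC3IP, a recombination factor.

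SUM149 cells grow as an established line and come from an inflammatory breast cancer. RNA was taken from untreated cells and from cells kept for 3, 6 or 12 h with 2.5 uM ACY1215, and each of the 4 samples was hybridised once, so that every group is 1 array of 1 cell line. Cy5 labelled the sample and Cy3 a reference used on all arrays. No array of vehicle-treated cells was analysed here, so treatment and time in culture cannot be told apart. All 3 comparisons share the untreated array, and without replicates no test or p-value is given for any time point. The number of arrays limits the precision.

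The proteasome is the protease that degrades proteins marked with ubiquitin. Its 20S core is a barrel of alpha rings, which form the gate, around beta rings, which hold the catalytic sites, and the 19S cap binds the ubiquitin chain, removes it and unfolds the substrate with a ring of ATPases. In the immunoproteasome, which is induced by interferon, the inducible catalytic subunits PSMB9, PSMB10 and PSMB8 take the places of the constitutive PSMB6, PSMB7 and PSMB5, and its products supply peptides for MHC class I. HDAC6 is a cytoplasmic deacetylase that also binds ubiquitin chains.

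After 12 h, PSMB9 was 1.75-fold higher than in untreated cells and PSMB10 was 0.66 of the untreated level. PSMB9 and PSMB10, both inducible subunits, thus moved in opposite directions. With loess normalization, none of the 14 constitutive core subunits and none of the 17 cap subunits had then reached 1.5-fold in either direction. Over all genes, 8.1% were past 1.5-fold higher and 5.13% past it lower. The median log2 change of the proteasome genes at 12 h was 0.09, against 0.01 over all genes, and it was -0.32 when arrays were centred on their median in place of loess. At 6 h the cap subunit PSMD7 and the assembly chaperone PSMG3 were 0.62 and 0.63 of the untreated level.

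The upstream sequences of the 3 inducible subunits and of PSME2, a subunit of the 11S activator that is also induced by interferon, are shown because all 4 genes are known as interferon-induced and had different values here. Each is the stretch of 250 bases before the annotated start in RefSeq (GRCh38.p14), written 5′ to 3′ on the strand of the gene. Capitals mark matches, on either strand, to the interferon-stimulated response element (GAAA, any 2 bases, GAAA), the gamma-activated site TTCNNNGAA, the antioxidant response element TGACNNNGC or the CCAAT box.
PSMB9, chr6:32853942-32854191, plus strand: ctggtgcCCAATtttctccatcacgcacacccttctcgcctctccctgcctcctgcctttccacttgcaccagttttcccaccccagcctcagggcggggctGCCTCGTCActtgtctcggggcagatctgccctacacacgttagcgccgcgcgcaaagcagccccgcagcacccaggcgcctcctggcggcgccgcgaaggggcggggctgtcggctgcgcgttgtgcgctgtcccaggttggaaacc
PSMB10, chr16:67936851-67937100, minus strand: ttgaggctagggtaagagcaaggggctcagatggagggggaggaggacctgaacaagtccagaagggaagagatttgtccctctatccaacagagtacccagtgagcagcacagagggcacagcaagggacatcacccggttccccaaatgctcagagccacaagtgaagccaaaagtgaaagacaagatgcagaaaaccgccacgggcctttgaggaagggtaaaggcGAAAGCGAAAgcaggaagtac
PSMB8, chr6:32844680-32844929, minus strand: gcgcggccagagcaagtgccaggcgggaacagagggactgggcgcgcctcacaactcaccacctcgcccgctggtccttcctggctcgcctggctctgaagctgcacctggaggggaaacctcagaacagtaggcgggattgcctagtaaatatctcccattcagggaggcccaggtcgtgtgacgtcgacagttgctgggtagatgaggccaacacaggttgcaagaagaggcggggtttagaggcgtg
PSME2, chr14:24146611-24146860, minus strand: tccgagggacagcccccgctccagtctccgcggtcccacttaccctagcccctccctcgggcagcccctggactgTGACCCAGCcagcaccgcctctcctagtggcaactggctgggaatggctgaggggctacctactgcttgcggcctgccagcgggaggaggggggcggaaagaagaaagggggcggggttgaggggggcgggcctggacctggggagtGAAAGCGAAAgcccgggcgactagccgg

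The PSMB10 and PSME2 stretches each held 1 match to the interferon-stimulated response element, ending 12 and 19 bases before the start. The PSMB9 stretch held a CCAAT box and, on the other strand, a match to the antioxidant response element, and the PSMB8 stretch, the first of 2 listed, held none of the 4 motifs. PSME2 also matched the antioxidant response element. The start of PSMB9 lies 488 bases from that of TAP1, a peptide transporter gene that runs the other way on chromosome 6. An entry was found for 42 of the 48 proteasome genes. Among these, 5 (11.9%) held the interferon-stimulated response element against 3.07% of 27305 promoters, and 5 (11.9%) held the gamma-activated site against 6.78%. The antioxidant response element was in 11 (26.2%) against 11%, and the CCAAT box in 18 (42.9%) against 33.0%. These are matches of letters in this window and no measure of binding.

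Several properties of the arrays bear on the values. Each array had 62976 spots, of which 2075 were controls, and none was saturated. Median Cy5 signals of 35 to 39 units stood over a local background of 24. Proteasome genes were bright, with a median Cy5 signal of 6978 units in the untreated array and 5093 units at 12 h. Spots lay in defective areas, where the Cy3 signal departed from the other arrays or outliers were flagged, for 3.25% of the untreated array, 4.48% of the 3 h array and 0.248% of the 6 h array. The labels describe the reference as a pool of the SUM149 samples, yet for 310 of 34755 genes the lowest of the 4 Cy3 signals exceeded the highest Cy5 signal 8-fold or more, a set that held 0 of the 54 symbols examined here. A reference common to all arrays cancels in a change from the untreated array. All 8 epithelial markers examined were well above background in untreated cells, at 976 to 41408 units, whereas 8 markers of leukocytes, endothelium, fibroblasts and liver gave 22 to 349 units, with 7 of the 8 above background.

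Values are log2 ratios of the sample over the reference signal, and a change is such a ratio minus that of the untreated array. A gene counted as measured when both dyes were well above background on the 2 arrays compared. This held for 47 of the 48 proteasome genes at each time. The exception was PSMA8, the alpha subunit of the testis, at 20 to 22 units. PSMB11, the thymus-specific catalytic subunit, passed but lay near background at 41 to 51.5 units. As the error, 300 probes printed in at least 9 spots gave a pooled SD of a log2 change between spots of 0.15 at 3 h, 0.12 at 6 h and 0.12 at 12 h. This is technical error within an array and leaves out the spread between cultures.

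Few proteasome genes passed 1.5-fold. At 3 h, 3 of 47 were at least 1.5-fold higher and 0 lower, where the whole array gave 6.87% higher and 1.96% lower. At 6 h, 1 was higher and 2 were lower against 9.4% and 4.42% of all genes, and at 12 h 1 was higher and 1 lower against 8.1% and 5.13%. Past 2-fold there were 2 genes, both higher at 3 h, where all genes gave 1.69% higher and 0.366% lower. None of the 47 reached 2-fold at 6 h, when 2.81% of all genes were higher and 0.939% lower, or at 12 h, when these shares were 2.34% and 1.12%. Counts in the smaller groups below are to be read beside these shares of all genes. The median change of the proteasome genes was 0.07, 0.08 and 0.09 at the 3 times, against 0.01, 0.02 and 0.01 over all genes, and 30, 30 and 31 of 47 (63.8%, 63.8% and 66.0%) lay above 0, against 51.4%, 52.8% and 52.5% of all genes. With the ratios only centred on the array median, in place of loess, the proteasome medians turned to -0.15 at 6 h and -0.32 at 12 h, and the median of all genes itself moved to -0.16 at 12 h. The 12 h counts were then 0 proteasome genes higher and 10 lower, against 4.14% and 13.9% of all genes. Above 0 lay 7 of 47 (14.9%), against 29.1% of all genes. The 4973 brightest genes, which include 39 of the proteasome genes, then had a median of -0.35 at 12 h, against 0.04 with loess. Over the 10 processing settings tried, 6 of the 47 genes lay above 0 at 12 h in every setting, namely PSMA2, PSMB9, PSMD2, PSMD6, PSME2 and PSME4. Another 11 lay below 0 in every setting, namely PSMA1, PSMA7, PSMB5, PSMB8, PSMB10, PSMC3, PSMC5, PSMD7, PSMF1, PSMG3 and PSMG4. For the other 30 genes the sign at 12 h differed between settings. The share of all genes with the same sign in every setting is not given. For a gene read by 1 measured probe outside defective areas, the settings for probe mean, dim filter and defective areas repeat the loess value. Counts of settings for such genes therefore hold copies of that value.

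**Figure D1:**
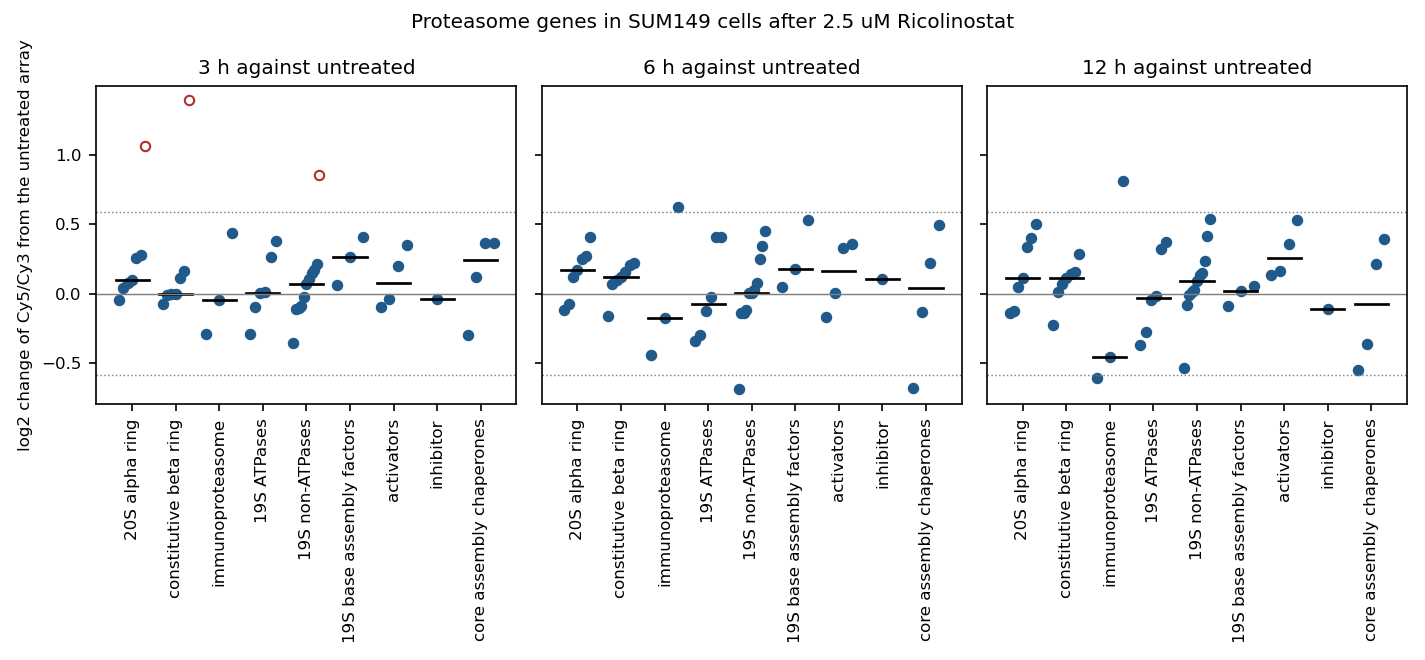
Log2 change of each measured proteasome gene from the untreated array (y axis) in its structural group (x axis) at 3, 6 and 12 h. Each point is 1 gene on 1 array, black bars are group medians and dotted lines mark 1.5-fold. Open red points lie in a defective area of the treated array, and PSMB11 is not drawn. The highest filled point at 12 h is PSMB9 at 0.81 and the lowest is PSMB10 at -0.60.

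The 3 genes past 1.5-fold at 3 h need a reservation. They were PSMB3, a noncatalytic beta ring subunit, PSMA4, an alpha ring subunit, and PSMD8, a lid subunit of the cap, with changes of 1.39, 1.06 and 0.85. All 3 were printed within rows 86 to 90 and columns 22 to 26, inside a defective area of the 3 h array. The Cy3 signal of PSMA4 was 2909 units in the untreated array, 612 at 3 h, 2677 at 6 h and 2846 at 12 h, and its Cy5 signal was 8035, 3643, 6933 and 6132. The reference channel was thus low on the 3 h array, and the sample channel was low there as well. For PSMB3, Cy3 went from 3130 to 543.5 units and Cy5 from 4853 to 2263 between the untreated and the 3 h array. For PSMD8, Cy3 went from 3824 to 857 units and Cy5 from 6978 to 2866. In the normalized Cy5 channel alone these genes were lower at 3 h, by log2 changes of -1.20 for PSMA4, -1.20 for PSMB3 and -1.35 for PSMD8, so that their direction at 3 h is not settled. At 6 and 12 h, outside any defective area, the changes were 0.17 and 0.11 for PSMA4, 0.22 and 0.07 for PSMB3, and 0.00 and 0.01 for PSMD8. Leaving out defective areas, 0 of 44 proteasome genes passed 1.5-fold at 3 h, and their changes ran from -0.35 for PSMD7 to 0.43 for PSMB9 with a median of 0.05.

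**Figure D2:**
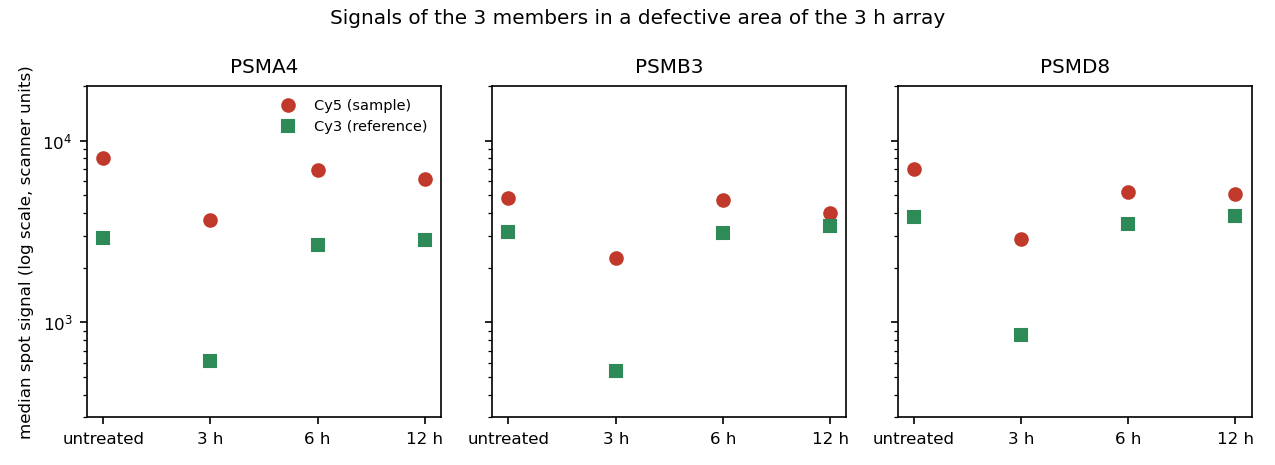
Median spot signal in scanner units (log axis) of PSMA4, PSMB3 and PSMD8 on each of the 4 arrays, 1 point per array, with Cy5 (sample) as red circles and Cy3 (reference) as green squares. Both channels were lower on the 3 h array than on the other 3, and Cy3 more so, down to 543.5 units for PSMB3.

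Within the alpha ring, whose subunits form the gated ends of the core, the median change was 0.10, 0.17 and 0.11. In the loess-normalized ratios 0 of 7 genes passed 1.5-fold at 6 or 12 h. With median centring alone PSMA1 and PSMA7 were past 1.5-fold lower at 12 h, at -0.59 and -0.61. PSMA2 had the highest value at 12 h. Its log2 ratio was -0.28 in untreated cells, -0.00 at 3 h, 0.13 at 6 h and 0.22 at 12 h, a change of 0.28, 0.41 and 0.50, of which 0.05 was left at 12 h with median centring alone. PSMA7 had the lowest, with ratios of 1.31, 1.34, 1.23 and 1.17 and a change of -0.14 at 12 h. PSMA5 gave 0.40 and PSMA6 0.33 at 12 h, or -0.03 and -0.16 with median centring alone, and PSMA1 was at -0.13. PSMA3 was at most 0.12 from its untreated value at all 3 times, but at -0.26 at 3 h in Cy5 alone and -0.40 at 12 h with median centring.

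In the constitutive beta ring the median change was 0.00, 0.12 and 0.11. PSMB1, a noncatalytic subunit, was highest at 12 h, with log2 ratios of -0.02, -0.03, 0.14 and 0.27 over the 4 arrays and a change of 0.28, or -0.23 with median centring. The lowest was PSMB5, which carries the chymotrypsin-like activity, with ratios of -0.08, -0.08, -0.24 and -0.31 and changes of -0.00, -0.16 and -0.23, or -0.68 at 12 h with median centring. PSMB6, the caspase-like subunit, had 0.77, 0.77, 0.89 and 0.78, a change of at most 0.12, or -0.45 at 12 h with median centring. PSMB7, the trypsin-like subunit, gave 0.66, 0.77, 0.87 and 0.78 with changes of 0.11, 0.21 and 0.11, or -0.37 at 12 h with median centring. Over all 14 constitutive core genes the median change was 0.09, 0.14 and 0.11, and 10, 11 and 11 lay above 0. The core medians turned to -0.14 at 6 h and -0.34 at 12 h with median centring alone, and to -0.021 and -0.10 in the Cy5 channel alone.

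The inducible catalytic subunits did not move together. PSMB9, which replaces PSMB6, had a log2 ratio of -0.35 in untreated cells, 0.09 at 3 h, 0.27 at 6 h and 0.46 at 12 h. Its change was 0.43, 0.62 and 0.81, and it rose past 1.5-fold at 6 and 12 h. PSMB10, which replaces PSMB7, had ratios of 0.65, 0.60, 0.47 and 0.05, and its change of -0.05, -0.18 and -0.60 put it past 1.5-fold lower at 12 h. PSMB8, which replaces PSMB5, had ratios of 0.71, 0.42, 0.27 and 0.25, a change of -0.29, -0.44 and -0.46 that stayed inside 1.5-fold, although with median centring alone it reached -0.61 at 6 h and -0.74 at 12 h. In the loess-normalized ratios PSMB9 was thus at its highest at 12 h, when PSMB10 and PSMB8 were at their lowest. With median centring alone PSMB9 was highest at 3 h, at 0.55 against 0.48 at 12 h. PSMB8 was lowest at 6 h in Cy5 alone, at -0.37 against -0.32 at 12 h. The same order for PSMB8 was seen with an offset of 1 and in the authors' table. The loess median of the 3 was -0.05, -0.18 and -0.46, which hides the opposite directions of PSMB9 and of PSMB8 and PSMB10. Each of the 3 genes was read by 1 probe in 1 spot per array, outside the defective areas.

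Set against its constitutive counterpart, PSMB9 stood 0.43, 0.50 and 0.80 above PSMB6 in log2 change at 3, 6 and 12 h. PSMB10 stood below PSMB7, by differences of -0.16, -0.39 and -0.72. For PSMB8 against PSMB5 the difference was -0.29, -0.28 and -0.23 and did not widen. These differences are between changes of separate probes and say nothing on which subunit had more RNA. PSMB9 lay above both PSMB8 and PSMB10 at every time in all 10 processing settings tried. At 12 h the gap between PSMB9 and PSMB8 ran from 0.94 to 1.31 and that between PSMB9 and PSMB10 from 1.14 to 1.53. The 12 h call held in 9 of 10 settings for PSMB9, with changes of 0.48 to 0.82, and in 8 of 10 for PSMB10, with changes of -1.05 to -0.50. At 6 h PSMB9 passed 1.5-fold in 6 of 10 settings, with a lowest value of 0.39 in Cy5 alone. The mean of probes, the lack of a dim-probe filter and leaving out defective areas returned unchanged values for these genes by construction. Those settings thus add no support to the counts.

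**Figure D3:**
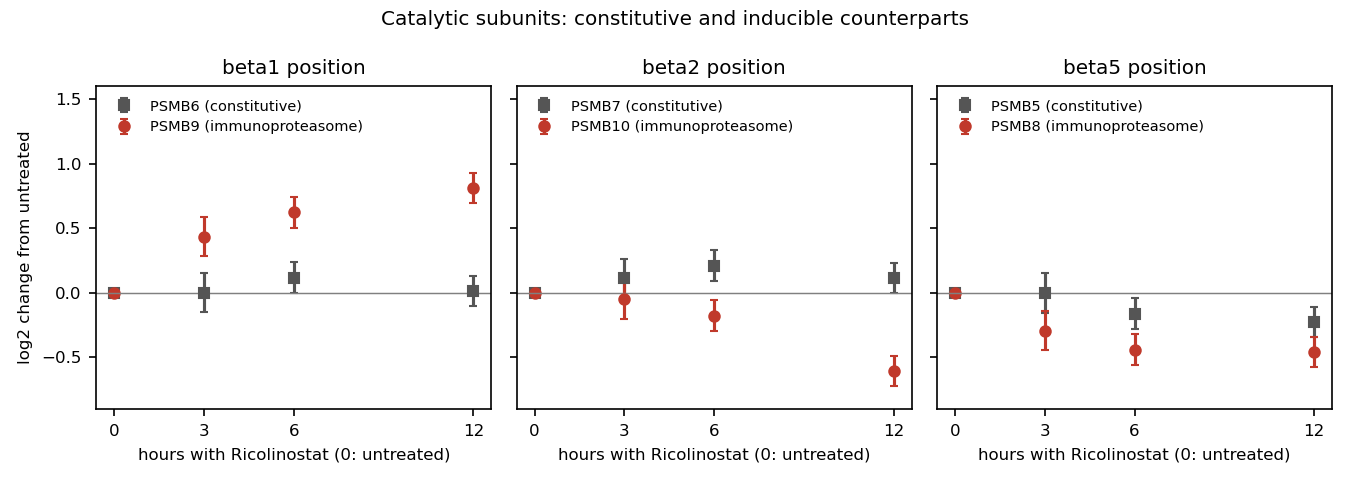
Log2 change from the untreated array (y axis) against hours with Ricolinostat (x axis) for each constitutive catalytic subunit (grey squares) and its inducible counterpart (red circles), 1 array per time. Error bars are the technical SD between repeated spots, 0.15, 0.12 and 0.12. PSMB9 reached 0.81 at 12 h, above PSMB6, while PSMB10 at -0.60 and PSMB8 at -0.46 lay below PSMB7 and PSMB5.

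The steps between treated arrays do not use the untreated array. From 6 to 12 h the step was 0.19 for PSMB9, -0.43 for PSMB10 and -0.02 for PSMB8. Among all 47 proteasome genes this step ran from -0.62 for PSMD10 to 0.37 for PSMD13, with a median of 0.01. For PSMB10 the larger part of the 12 h value came after 6 h, and for PSMB8 before it.

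In the 19S cap the 17 genes had median changes of 0.01, 0.00 and 0.03, with 10, 9 and 10 above 0, and with median centring alone the medians were -0.26 at 6 h and -0.35 at 12 h. The 6 ATPases, which unfold the substrate, lay on both sides of 0. PSMC2 had changes of 0.26, 0.41 and 0.37 and PSMC6 of 0.38, 0.41 and 0.32, whereas PSMC3 had changes of -0.29, -0.34 and -0.28 and PSMC5 of -0.10, -0.30 and -0.37. The lowest 12 h values over the settings were -0.02 for PSMC2 and -0.09 for PSMC6, both with median centring, while PSMC3 ran from -0.65 to -0.11 and PSMC5 from -0.67 to -0.20, the low ends past 1.5-fold with median centring. At 3 h PSMC5 was at -0.90 in Cy5 alone. PSMC2, the highest at 12 h, had log2 ratios of 0.62, 0.89, 1.03 and 1.0, and PSMC5, the lowest, had 0.60, 0.50, 0.30 and 0.23. A second, dimmer probe of PSMC2 gave changes of 0.03, 0.16 and -0.23, so its direction at 12 h depends on the probe. In the loess-normalized ratios no ATPase passed 1.5-fold, and PSMC1 and PSMC4 were at most 0.12 from their untreated values.

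Of the 11 other cap subunits, PSMD7 was the one past 1.5-fold at 6 h. PSMD7 is a lid subunit and the partner of the deubiquitinase PSMD14 (RPN11). Its log2 ratio was -0.75 in untreated cells, -1.10 at 3 h, -1.44 at 6 h and -1.29 at 12 h, a change of -0.35, -0.69 and -0.54. All 3 treated arrays lay below the untreated array. The spots of the probe touched a defective area of the untreated array, and 9 of its 10 spots were used at each time. Leaving out such areas gave the same -0.35 at 3 h and -0.69 at 6 h because it removed no further spot. That setting is thus no check on PSMD7. PSMD14 itself had changes of -0.02, 0.01 and 0.03, or -0.43 at 12 h with median centring. PSMD2, a base subunit that docks ubiquitin receptors, was highest at 12 h with ratios of 0.85, 0.92, 1.31 and 1.39 and changes of 0.07, 0.45 and 0.53. The second probe of PSMD2 gave -0.34, -0.42 and -0.09, so its direction depends on the probe, and with median centring alone the 12 h value was 0.014. PSMD4, a ubiquitin receptor, gave -0.10, -0.11 and -0.08.

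PSMD6 and PSMD7, both lid subunits, were the proteasome genes printed in 10 spots, which gives their error directly. Over the spots used on both arrays, the log2 change of PSMD6 was 0.21 ± 0.09 (SD, n = 9 spots) at 3 h, 0.34 ± 0.10 (n = 10 spots) at 6 h and 0.41 ± 0.08 (n = 10 spots) at 12 h. For PSMD7 it was -0.36 ± 0.05, -0.68 ± 0.09 and -0.53 ± 0.10 (SD, n = 9 spots each). No spot of PSMD6 lay below 0 and no spot of PSMD7 above it at any time, so the opposite signs of these subunits exceeded the spread between spots. With median centring alone the 12 h value of PSMD6 was 0.03. Spots share 1 RNA sample and are not replicates of the treatment. The 6 h value of PSMD7 passed 1.5-fold in 10 of 10 settings, and its 12 h value in 5 of 10. For this gene the settings for probe mean, dim filter and defective areas repeat the loess value. They add no support to these counts.

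**Figure D4:**
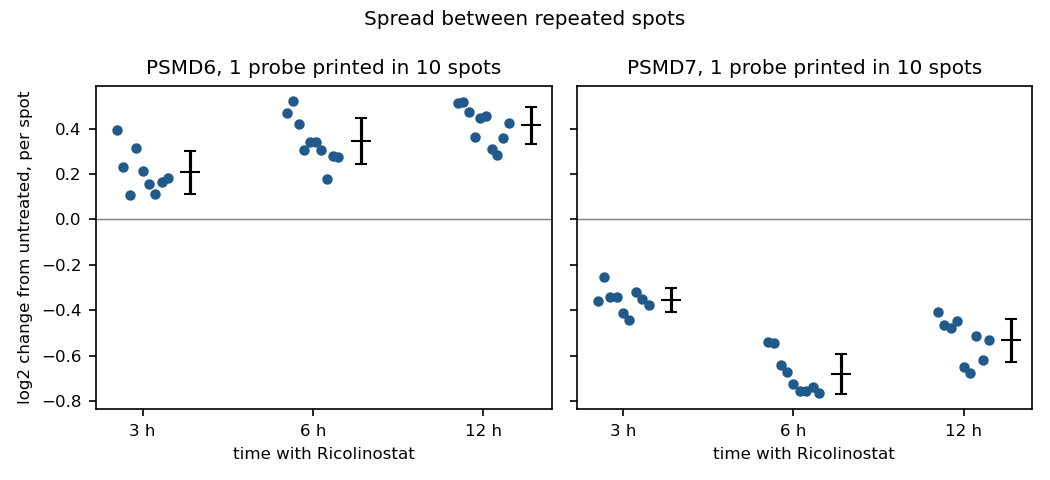
Log2 change from the untreated array (y axis) in each spot of the PSMD6 and PSMD7 probes at 3, 6 and 12 h (x axis). Points are spots of 1 array and bars to the right show their mean and SD. PSMD6 spots lie above 0, with a mean of 0.41 at 12 h, and PSMD7 spots lie below 0, with a mean of -0.68 at 6 h.

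Among the base assembly factors, which help the ATPase ring to form, PSMD10 (gankyrin) had changes of 0.27, 0.53 and -0.09, the lowest of the 3 at 12 h. Its log2 ratios were -1.70, -1.43, -1.17 and -1.79. PSMD9, the highest of the 3 at 12 h at 0.06, had ratios of 0.59, 0.65, 0.64 and 0.65. The fall of PSMD10 between 6 and 12 h was seen in 1 probe: its other probes gave 0.17, 0.26 and 0.29, and 0.06, 0.19 and 0.13. For PSMD5 the changes were 0.41, 0.17 and 0.02, while its other, dimmer probes gave -0.05, 0.01 and -0.26, and 0.16, 0.25 and 0.06.

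The core assembly chaperones work in pairs, PSMG1 with PSMG2 and PSMG3 with PSMG4. PSMG1 had log2 ratios of -0.16, 0.21, 0.34 and 0.23, changes of 0.37, 0.50 and 0.39, and PSMG2 had changes of 0.36, 0.22 and 0.22. PSMG3 had ratios of 0.33, 0.03, -0.34 and -0.22, changes of -0.30, -0.67 and -0.55, past 1.5-fold lower at 6 h. PSMG4 gave 0.12, -0.13 and -0.36, and reached -0.51 at 6 h in Cy5 alone and -0.79 at 12 h with median centring, past 1.5-fold in 2 of 10 settings. At 6 and 12 h both members of the first pair were thus above their untreated values and both members of the second below, except that at 12 h PSMG1 was -0.08 in Cy5 alone and PSMG2 -0.09 with median centring. A second, dim probe of PSMG2 gave -0.20 at 6 h and 0.06 at 12 h, so its direction at 6 h depends on the probe. The 6 h call of PSMG3 held in 10 of 10 settings, and 4 of 10 settings put it past 1.5-fold at 12 h.

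Among the activators, which open the core without ubiquitin, PSME2 had log2 ratios of -0.43, -0.23, -0.07 and 0.10, changes of 0.20, 0.36 and 0.53. Its partner in the interferon-induced 11S ring, PSME1, was the lowest of the 4 at 12 h, with ratios of -0.35, -0.45, -0.52 and -0.22 and changes of -0.10, -0.17 and 0.13. PSME4 (PA200), which caps the core in the nucleus, gave 0.35, 0.33 and 0.36, although its 3 h value was -0.73 with the scanner software's own processed signals. The other measured probe of PSME4 gave 0.50, 0.24 and 0.05, so its 12 h value depends on the probe. PSME3, the nuclear 11S subunit, gave 0.16 at 12 h. No activator passed 1.5-fold. The 12 h value of PSME2 ran from 0.03 with median centring to 0.53. PSMF1 (PI31), described as an inhibitor of the core in vitro, gave -0.04, 0.10 and -0.11 with log2 ratios of -1.22, -1.26, -1.12 and -1.33. A second of its 5 probes gave -0.47, -0.60 and -0.35.

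Over the 3 times, 11 of 47 proteasome genes lay above the technical SD each time, a share of 23.4% against 20.3% of the 19891 genes measured throughout. They were PSMA2, PSMA6, PSMB9, PSMC2, PSMC6, PSMD1, PSMD6, PSME2, PSME4, PSMG1 and PSMG2. Another 4, PSMB8, PSMC3, PSMD7 and PSMG3, lay below it each time, 8.51% against 14.8% of all genes. Both lists draw on several structural groups, and the 3 comparisons share the untreated array. Other probes of the same genes often differed from the probe used. At 12 h, only 9 of 18 further probes had its sign, so they showed no common direction with it. The median absolute difference was then 0.18, and 10 of the 18 lay within 0.2. At 6 h, 13 of 18 had the sign of the probe used. The second probe of PSMD1, a base subunit, gave -2.19, -2.22 and -2.09 against 0.17, 0.25 and 0.15, and lay in a defective area of the untreated array with a Cy3 signal of 40 units there and 739 to 816 units on the other arrays.

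The 6 transcripts that match by name only had no member past 1.5-fold at any time. PSMC3IP was the highest at 6 h at 0.54, and PSMA3-AS1 the lowest at 12 h at -0.30. PSMB8-AS1 gave 0.17, -0.02 and 0.14.

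Other genes of the pathway give the setting. Of 11 measured factors that bind or assemble the proteasome, none was past 1.5-fold higher at 3, 6 or 12 h. The shares over all genes were 6.87%, 9.4% and 8.1%. Past 1.5-fold lower was 1 factor at 6 and at 12 h, against 4.42% and 5.13% of all genes. This was KIAA0368 (ECM29), an adaptor of the 26S particle, at -0.66 and -1.07. At 3 h the same probe, in a defective area, gave 0.56, with values from -1.40 in Cy5 alone to 0.80 in the authors' table. Its other probe gave -0.06, -0.02 and -0.16. POMP, the maturation factor of the core, gave 0.12, 0.33 and -0.21, and UCHL5 and USP14, the deubiquitinases bound to the cap, gave 0.31 and 0.11 at 12 h, with lowest values of -0.02 each over the settings. The 12 h value of POMP was 0.39 in Cy5 alone.

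Of 10 genes that control proteasome transcription or the processing of its activator, 0 passed 1.5-fold higher and 1 lower, UBQLN2 at -0.68 at 6 h. At 6 h, 9.4% of all genes were past 1.5-fold higher and 4.42% lower. NFE2L1 (NRF1), the activator of proteasome genes, had changes of -0.24, -0.26 and 0.01, and NFE2L2 (NRF2) of 0.26, 0.29 and 0.48. The NFE2L2 probe was dim, at 76 units in untreated cells, where the offset shrinks changes. At 12 h NFE2L2 ran from 0.14 to 1.09 over the settings and passed 1.5-fold in 4 of 10, and NFE2L1 ran from -0.37 to 0.01. The list median was -0.08, -0.15 and -0.20. UBB, a polyubiquitin gene, gave 0.17, 0.34 and 0.48, and the ribosomal fusion gene RPS27A gave -0.23 at 12 h, or -0.03 and -0.77 at 12 h with median centring.

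Of 9 genes for peptide supply to MHC class I and its control, 8 were measured, and 2 were past 1.5-fold higher and 1 lower at 12 h, against 8.1% and 5.13% of all genes. TAP1, the transporter subunit whose start faces that of PSMB9, had changes of 0.65, 0.75 and 0.97, past 1.5-fold at all 3 times. B2M, the light chain of MHC class I, had changes of 0.31, 0.54 and 0.69 and passed 1.5-fold at 12 h, a call that held in 8 of 10 settings with a lowest value of 0.24 under median centring. ERAP1, an aminopeptidase that trims peptides, had changes of -0.19, -0.73 and -0.60 and was past 1.5-fold lower at 6 and 12 h. IRF1, a transcription factor of the interferon response, gave 0.21, 0.33 and 0.21. PSMB9 and TAP1 thus both passed 1.5-fold at 6 and 12 h, whereas PSMB8 and PSMB10 lay below their untreated values. The brighter probe of TAP2 was flagged on the untreated array, and its other probe gave 0.07, -0.11 and 0.01.

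**Figure D5:**
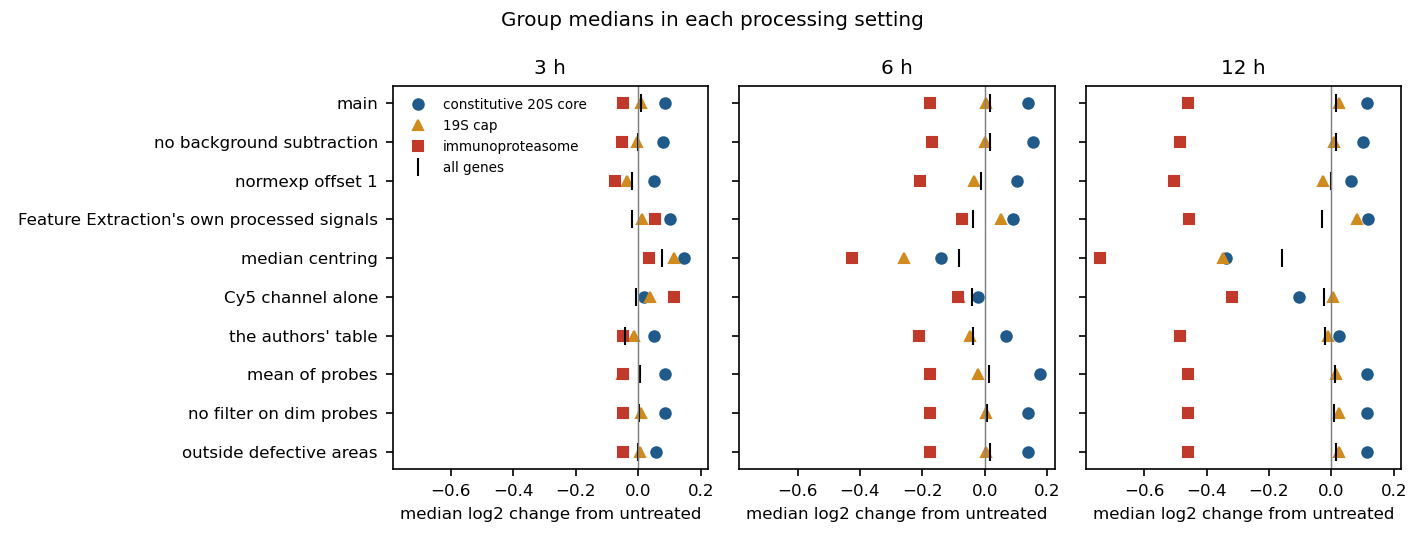
Median log2 change from the untreated array (x axis) of the 14 constitutive core genes, the 17 cap genes, the 3 immunoproteasome genes and all measured genes in each of 10 processing settings (y axis) at 3, 6 and 12 h. At 12 h the immunoproteasome median ran from -0.74 to -0.32 and was the lowest of the 4 in each setting, while the core and cap medians turned negative under median centring, to -0.34 and -0.35, and the core also in Cy5 alone, to -0.10.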

How the data were processed

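RNA of SUM149 cells was hybridised to 4 Agilent arrays of 2 colours, 1 for each time point, all on 1 slide, so there was no batch to compare. The authors deposited the median signal intensity of each spot, its background and its flags. The authors also deposited normalized log2 ratios, whose normalization is not given in the sources used here. Column medians of these ratios were 0.04 to 0.06, and the values correlated with those used here at 0.976 to 0.977 across spots well above background on all arrays. That table was an alternative and the source of gene symbols.

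Intensities were background-corrected (normexp, offset 50), normalized by loess with control and flagged spots at weight 0 and by Aquantile (limma 3.58.1, R 4.3.3). Repeated spots were averaged, and each gene was represented by its probe of highest average Cy3 signal. Tables were made in Python 3.11.15 with pandas 2.3.3. A gene was called past 1.5-fold, or 2-fold where stated, without a test. The members and lists were chosen with earlier results of these data known. Values in every array are given for the catalytic pairs, members past 1.5-fold and the highest and lowest member of each group at 12 h. Defective areas were those where 10% or more of the spots within 13 rows by 7 columns were defective. On simulated data of 35130 spots, a planted log2 change of 1 passed 1.5-fold in 47 of 50 bright spots (net Cy5 signal of 200 or more) and in 11 of 50 dimmer ones, where the offset shrinks changes. Genome coordinates other than the upstream stretches are not given, since the array was designed on another build. Some genes of the pathway lists are not reported here.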

Additional observations from a re-analysis of the deposited data

Results flagged for a closer look

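The Cy3 channel held the same reference on all arrays. Among 53 measured genes of the rule, 8 had a Cy3 signal on 1 array that stood apart from the other 3 by Dixon's criterion for 4 values, which chance meets in about 1 of 20 groups. On the 3 h array PSMA4, PSMB3 and PSMD8 were low, with a range over the arrays of 2.12, 2.45 and 2.05 on the log2 scale. These are the genes in the defective area. PSME4 and PSMG3 were also low there, with ranges of 0.43 and 0.36, and neither lay in a defective area. PSMC3IP stood apart on the 3 h array with a range of 0.071, and PSMB2 on the 12 h array with a range of 0.054. For PSMB9 it was the untreated array, with a range of 0.19, against which its change at 12 h was 0.81, and 0.62 in Cy5 alone. The part of these shifts in the changes was not tested.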

How the results depend on the processing

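No paired analysis was possible because the groups hold 1 array each, and for the same reason no array could be left out. Median centring in place of loess moved the medians at 6 h to -0.15 for all proteasome genes, -0.14 for the core, -0.26 for the cap and -0.43 for the immunoproteasome, and at 12 h to -0.32, -0.34, -0.35 and -0.74. The difference of immunoproteasome and core was then -0.40 at 12 h, 0 genes were past 1.5-fold higher at 6 and at 12 h, and 10 were lower at 12 h. The Cy5 channel alone put the immunoproteasome median at 0.12 and its difference from the core at 0.10 at 3 h, with 0 genes higher and 5 lower. PSMA4, PSMB3 and PSMD8 reversed there, to -1.20, -1.20 and -1.35. At 6 h it gave medians of -0.057 for all and -0.021 for the core, a difference of -0.066 and 0 genes higher. At 12 h it gave -0.032, -0.10, an immunoproteasome median of -0.32, a difference of -0.22 and 3 genes lower. The scanner software's processed signals gave 1 gene lower at 3 h, a difference of -0.16 and 0 higher at 6 h. The authors' table gave 0 higher at 6 h and 3 lower at 12 h, an offset of 1 gave 3 lower at 12 h, the mean of all probes gave 1 lower at 3 h and 2 at 12 h, and leaving out defective areas gave 0 higher at 3 h. At 2-fold no gene was higher or lower at 6 or 12 h, 0 in each count. The other 157 values of medians, differences and counts moved by less than the technical SD, or by at most 1.5 times for counts. The causes were not tested. Changes of dim probes, such as that of PSMB11, are shrunk by the offset. This also holds for USP14, IRF1 and NFE2L2, at 69, 74.5 and 76 units in untreated cells.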
